A study of Rattus norvegicus with 16 samples.

Results

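The genes described here encode the proteins of the cytosolic ribosome, measured on arrays in the diaphragm of 16 male Wistar rats. They were taken as the array entries whose gene symbol in the platform's probe-to-gene table began with Rpl or Rps and a digit, or was Rplp0, Rplp1, Rplp2 or Rpsa, with the S6 kinase genes and symbols holding "-ps" or "-l" left out. The rule gave 76 genes, each with 1 entry, of 15037 genes with a symbol. By name, 39 were proteins of the large subunit, 25 of the small subunit, 3 belonged to the P stalk, and 9 were paralogues (Rpl3l, Rpl22l1, Rpl27l2, Rpl36al1, Rpl37l1, Rpl39l1, Rps12l4, Rps27l and Rps4y2). Ribosomal protein genes have many near-identical copies and pseudogenes, so the signal of an entry may hold RNA of more than 1 copy.

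The ribosome joins a small subunit, which reads the mRNA, to a large subunit, which forms the peptide bonds, and the P stalk of the large subunit recruits the GTPase factors of translation. Ribosomal protein mRNAs are among the most abundant of a cell, and most of them start with a run of pyrimidines, the terminal oligopyrimidine (TOP) tract, through which their translation follows mTORC1 activity. In skeletal muscle, ribosome number is a main limit on protein synthesis, and it is known to rise with loading and to fall with disuse.

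The rats were 14 to 16 weeks old and fell into 4 groups of 4, with 1 array per rat. In CON the diaphragm was taken straight after anaesthesia, without ventilation. V12 rats had a tracheostomy and 12 h of mechanical ventilation under isoflurane and then urethane. S-V12 rats were ventilated likewise and also had an abdominal incision with electrodes placed on the diaphragm but no stimulation, and E-V12 rats had the same operation with electrical stimulation through the 12 h. By the study's methods, both operated groups also breathed supplemental oxygen, and the tissue around the electrodes was removed. V12/CON therefore holds ventilation, tracheostomy, long anaesthesia and time together. S-V12/V12 holds the abdominal incision, electrodes and oxygen together. Within each of these comparisons they cannot be told apart.

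The values are log2 signals on Clariom S arrays, and a change of 1 is a 2-fold change. Over the 16 arrays the median signal lay between 5.57 and 5.73, and 33.0 to 40.9% of entries were above the highest background entry of the same array. Of the 76 genes, 72 were above that background on every array, and Rpl27l2, Rpl39l1, Rps12l4 and Rps4y2 were below it on every array. A change was called at an adjusted p under 0.05 in limma, fitted to the 4 groups together over 23188 entries. The median half-width of the 95% interval of a change was 0.51 over the 76 genes.

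Of the markers of skeletal muscle, the labelled tissue, Acta1 and Ckm averaged 19.85 or more in every group, at the upper end of the scale. No more than 2 of the 13 muscle markers were called in any comparison, and each called gene was lower. In S-V12/V12 and S-V12/CON they were Tnni2 and Tnnt1. The mean of the 13 was 19.17 to 19.51 over the arrays, so few calls do not show that muscle content was unchanged. Of 10 macrophage markers, 4 were higher and 1 lower in V12/CON, 2 were higher in S-V12/V12 and 0 were called in E-V12/S-V12 (limma; 2 with an unadjusted p under 0.05). The 6 neutrophil and 8 lymphocyte markers gave 0 calls in these 3 comparisons, with at most 2 of each list at an unadjusted p under 0.05. Their list means were 4.09 to 6.22 and 3.79 to 4.42 over the arrays, below the highest background entry (6.39 to 7.20). The 0 calls therefore do not show that these cells were unchanged. In S-V12/CON, E-V12/V12 and E-V12/CON, 1, 1 and 2 of the neutrophil markers were called higher and 0 lower. For the macrophage markers these numbers were 6, 2 and 5 higher and 0 lower. Over all entries, 12.0%, 4.75% and 10.9% were higher. In E-V12/CON, 5 of 8 fibroblast markers were lower and 2 higher. Of 5 smooth muscle markers 3 were lower and 0 higher there, against 12.6% of all entries lower. Of 9 red blood cell markers 3 were lower in V12/CON, 2 were lower in S-V12/V12, and Hbb and Hba-a1 were higher in E-V12/S-V12. Fewer cells of a type and less RNA per cell cannot be told apart in whole tissue.

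CON replicate 1 stood apart from the other controls. It had the lowest CON signal for 72 of the 76 ribosomal protein genes (94.7%), against 26.6% of all entries. Relative to the CON mean, its median over the 76 genes was −0.80, while CON replicates 2, 3 and 4 lay at 0.47, 0.21 and 0.14. The median SD of a gene over the CON arrays was 0.575 with this array and 0.231 without it, so each comparison is given with and without it below.

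**Figure D1:**
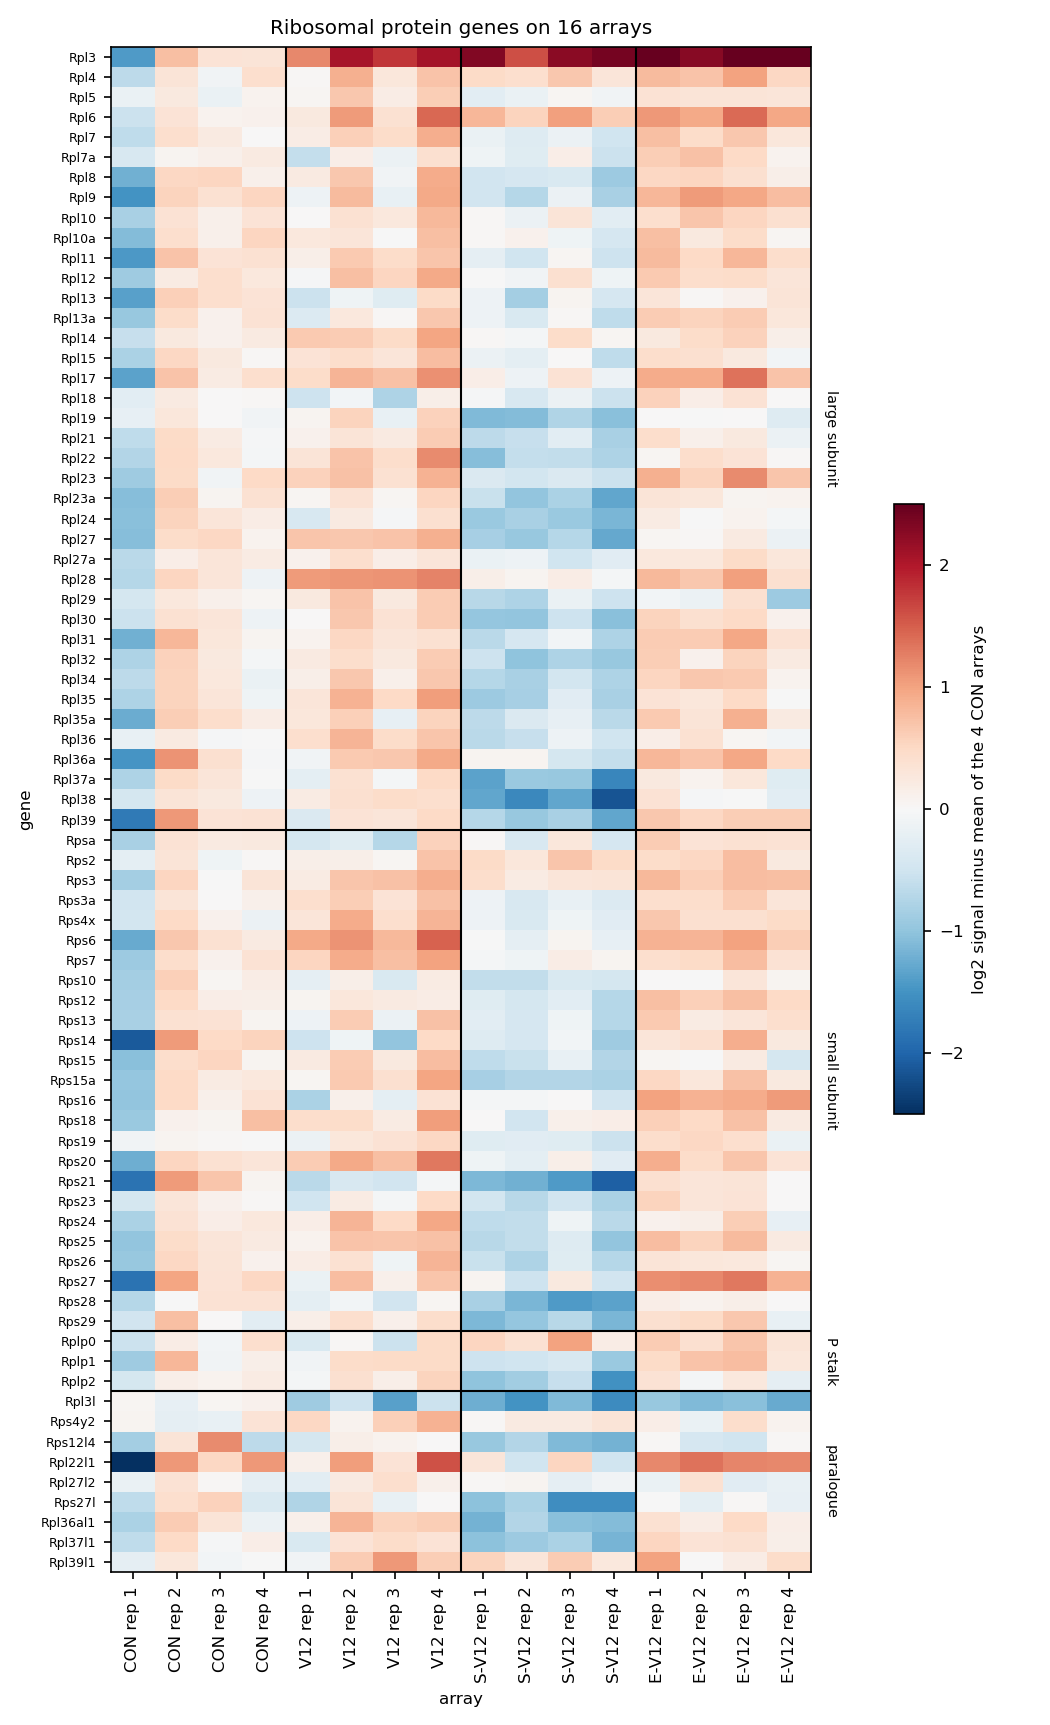
Log2 signal of the 76 ribosomal protein genes (rows, by role) on the 16 arrays (columns, by group), minus the gene's mean over the 4 CON arrays; red is higher and blue lower. CON replicate 1 is blue for nearly every gene, the 4 S-V12 columns are mostly blue, and the V12 and E-V12 columns mostly red.

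The start sites of 9 genes are shown because TOP tracts are the known shared feature of this family and because the genes differed in how they responded. Each line gives 10 bases before and 20 from the annotated transcript start (RefSeq, assembly GRCr8), read on the gene's strand. Capitals mark a tract of a C followed by at least 4 further C or T that begins within 5 bases of the start. In the first 4 genes the tract begins at the annotated start, in Rps28 4 bases after it and in Rps21 5 bases before it. In Rpl38, Rpl3 and Rpl3l none begins within 5 bases. Rpl38 does hold such a run that begins further upstream and ends directly before the start.
Rpl19, chr10:83519054-83519083, plus strand: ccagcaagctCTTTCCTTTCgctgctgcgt
Rpl37a, chr9:81748081-81748110, plus strand: cccgttgcgtCTCTTCCTCTTCgggcttgg
Rpl39, chrX:121195877-121195906, minus strand: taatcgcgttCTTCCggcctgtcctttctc
Rplp1, chr8:71290853-71290882, minus strand: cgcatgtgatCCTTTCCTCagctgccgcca
Rps28, chr7:15311314-15311343, minus strand: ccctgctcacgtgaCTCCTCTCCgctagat
Rps21, chr3:187724028-187724057, plus strand: agccaCTTCCTTTCTgtgttctccgtagac
Rpl38, chr10:100200425-100200454, plus strand: ttctttttccgttgttcggtgctcgctcct
Rpl3, chr7:113507971-113508000, minus strand: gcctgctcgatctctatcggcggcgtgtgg
Rpl3l, chr10:14258436-14258465, plus strand: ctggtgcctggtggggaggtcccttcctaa

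Of the 76 genes, 65 had a promoter entry in RefSeq. A tract began exactly at the annotated start in 23 of the 65 (35.4%), against 881 of 33469 genes (2.63%), and within 5 bases of it in 38 (58.5%), against 17% of all genes. A match of letters is a description of the annotated window, and a missing match says only that these letters are not at the annotated start.

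With the abdominal incision, electrodes and oxygen added to ventilation (S-V12/V12), the ribosomal protein genes were lower as a family. Of the 76 genes, 40 (52.6%) were called lower and 0 higher, where 6.66% of all entries were called lower and 8.05% higher. The changes ran from −1.96 to 0.63 with a median of −0.81, against −0.05 over all entries, and 71 of 76 were below 0. With an unadjusted p under 0.05 there were 55. The methods' t-test, taken with an adjusted p and no fold limit, called 39 lower and 0 higher. At a fold of 2 and an unadjusted limma p under 0.05, 26 were lower and 0 higher. Both subunits took part: 20 of 39 large subunit genes, 14 of 25 small subunit genes, 2 of 3 P stalk genes and 4 of 9 paralogues were called lower.

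Rpl38, a small protein of the large subunit required for the translation of some Hox mRNAs in mouse embryos, fell most. Its signals were 11.36, 11.56, 11.60 and 11.57 in V12 and 9.86, 9.54, 9.86 and 8.98 in S-V12, and the groups did not overlap. The change was −1.96 ± 0.22 (SE, n = 4 per group; limma adjusted p = 3.74e-06), a 3.89-fold lower signal. Rpl27, also of the large subunit, read 14.12, 14.10, 14.14 and 14.32 in V12 and 12.59, 12.47, 12.72 and 12.14 in S-V12, a change of −1.69 ± 0.26 (adjusted p = 9.5e-05). Its V12 arrays lay close together, and the lowest of them was well above the highest S-V12 array.

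The next in size were Rpl36al1 (−1.55 ± 0.24), a paralogue of Rpl36a, then Rpl22 (−1.43 ± 0.24), which is dispensable for most translation but needed for T cell development in mice, Rpl35 (−1.38 ± 0.25) and Rpl37a (−1.36 ± 0.26). Rpl37a, with the longest tract of those shown, read 14.42, 15.03, 14.60 and 15.16 in V12 and 13.33, 13.73, 13.70 and 13.03 in S-V12. In the small subunit, Rps29 changed by −1.26 ± 0.24 and Rps6, the S6 kinase substrate, by −1.18 ± 0.29. Rps6 was between 15.77 and 16.43 in V12 and between 14.74 and 15.02 in S-V12, again without overlap.

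Some of the family did not take part. Rps16 changed by 0.00 in size, with an interval from −0.58 to 0.57, and Rpl6 by −0.02 (−0.53 to 0.49). Rpl4, whose protein lines the exit tunnel, changed by −0.01 (−0.49 to 0.47) and Rps2 by 0.23 (−0.18 to 0.63). Rplp0, the base of the P stalk, went the other way from its partners: it changed by 0.63 ± 0.24 (adjusted p = 0.0876, not called), while Rplp1 fell by 0.92 and Rplp2 fell by 1.25 (adjusted p = 0.0194 and 5.14e-04). Rplp0 read 13.05, 13.47, 12.90 and 13.92 in V12 and 13.97, 13.82, 14.44 and 13.63 in S-V12, with overlap.

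Without CON replicate 1, which enters this comparison only through the shared estimate of spread, 51 genes were called lower. The count lay between 29 (without V12 replicate 4, where 1 gene was called higher) and 51 when any 1 array was left out, and 67 to 73 genes stayed below 0.

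With stimulation added to the same operation (E-V12/S-V12), the ribosomal protein genes were higher. Of the 76 genes, 30 (39.5%) were called higher and 0 lower, where 1.19% of all entries were called higher and 1.51% lower. The changes ran from −0.07 to 1.70 with a median of 0.82, against 0.02 over all entries, and 72 were above 0. With an unadjusted p under 0.05 there were 56. The methods' t-test, taken with an adjusted p and no fold limit, called 35 higher and 0 lower. At a fold of 2 and an unadjusted limma p under 0.05, 26 were higher and 0 lower. The calls covered 16 of 39 large subunit genes, 9 of 25 small subunit genes, Rplp1 and Rplp2, and 3 of 9 paralogues.

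The change in E-V12/S-V12 was greatest for Rps21, a small subunit protein whose tract, shown above, begins before the annotated start. It read 13.57, 13.51, 13.29 and 12.66 in S-V12 and between 14.71 and 15.10 in E-V12, without overlap, a change of 1.70 ± 0.40 (SE, n = 4 per group; limma adjusted p = 0.0264). Rpl38 was back at 11.51, 11.11, 11.14 and 10.88 in E-V12, a change of 1.60 ± 0.22 (adjusted p = 0.0033). All 4 E-V12 arrays were thus above the S-V12 arrays and within the range of the CON arrays (10.71, 11.47, 11.39 and 11.03), apart from E-V12 replicate 1, which was slightly above it.

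Rpl39, one of the smallest ribosomal proteins, changed by 1.55 ± 0.38 and Rpl9 by 1.44 ± 0.35. Rpl39 read 15.75, 15.51, 15.66 and 15.17 in S-V12 and 17.13, 16.99, 17.08 and 17.07 in E-V12. The E-V12 arrays lay within a narrow band, all above the S-V12 arrays. Rps28 changed by 1.28 ± 0.22 (adjusted p = 0.00672), from 10.10, 9.76, 9.49 and 9.57 in S-V12 to 11.07, 11.00, 11.05 and 10.91 in E-V12. Rps29, Rpl36al1 and Rpl37l1 changed by 1.32, 1.32 and 1.33. Rpl37l1 was counted among the paralogues by its symbol only, since RefSeq lists it as Rpl37.

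Among genes chosen by role, Rpl5 and Rpl11, which bind 5S rRNA and restrain Mdm2 when ribosome assembly fails, were not called. They changed by 0.44 (0.06 to 0.82) and 0.94 (0.28 to 1.60). Rps19, mutated in Diamond-Blackfan anaemia in humans, changed by 0.66 ± 0.19 (adjusted p = 0.0663), and Rpsa, the laminin receptor precursor, by 0.55 ± 0.27 (adjusted p = 0.315). Rplp0 differed by −0.01 (−0.52 to 0.49).

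The number of calls in E-V12/S-V12 depended on single arrays. It was 6 without E-V12 replicate 3, when calls over all entries fell from 277 to 45 higher. It was 16, 15 and 19 without E-V12 replicates 1, 2 and 4, then 16, 15 and 11 without S-V12 replicates 1, 2 and 4, and 47 without CON replicate 1. The median change moved far less, between 0.75 and 0.91, and 72 to 74 genes stayed above 0 in each of these fits.

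**Figure D2:**
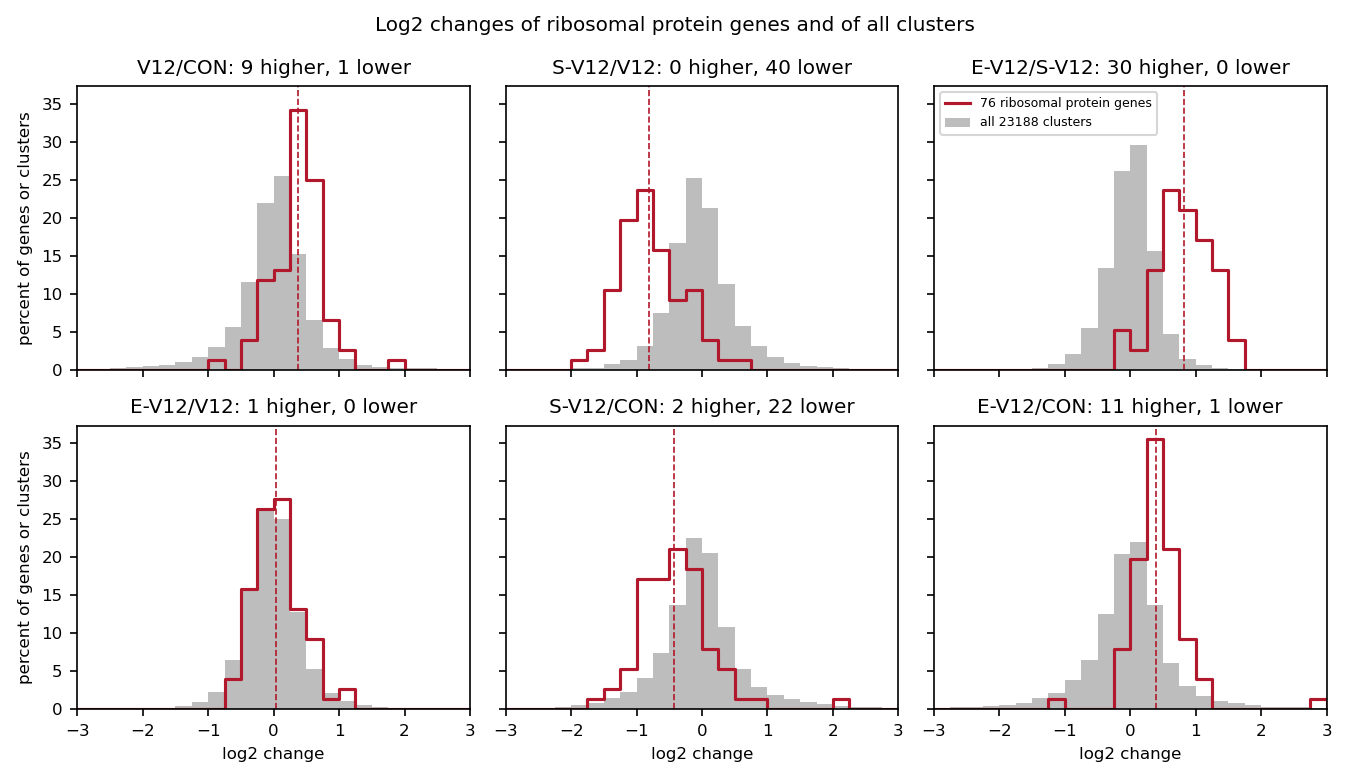
Distribution of log2 changes (horizontal axis) as the percent of all 23188 entries (grey bars) and of the 76 ribosomal protein genes (red line), in steps of 0.25, for the 6 comparisons; the dashed line is the genes' median and the titles give the genes called. The red line lies left of the grey bars in S-V12/V12 (median −0.81), right of them in E-V12/S-V12 (0.82), and over them in E-V12/V12 (0.04).

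S-V12/V12 and E-V12/S-V12 share the S-V12 arrays, so a high or low S-V12 array moves both in opposite directions. Side by side, 25 genes were called lower in S-V12/V12 and higher in E-V12/S-V12, among them Rpl19, Rpl22, Rpl27, Rpl38, Rpl39, Rplp1, Rplp2, Rps28 and Rps29. The matching share of all entries was not counted, here or for the counts that follow. For this pair of calls it can be no more than the 1.19% called higher in E-V12/S-V12. A further 15 were called lower in S-V12/V12 but not called in E-V12/S-V12, for example Rps6 (0.93, adjusted p = 0.0831) and Rpl28 (0.64, adjusted p = 0.125). The 5 called in E-V12/S-V12 alone of the 2 were Rpl9, Rpl31, Rps12, Rps16 and Rps21.

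The change in E-V12/V12 does not use the S-V12 arrays, which enter this comparison only through the shared estimate of spread. There 1 gene was called higher and 0 lower, where 4.75% of all entries were called higher and 3.81% lower, and 9 had an unadjusted p under 0.05. The changes ran from −0.70 to 1.10 with a median of 0.04, and for 62 of the 76 genes the 95% interval lay within 1 on either side of 0. The gene was Rps16, which read 15.07, 14.92, 14.99 and 15.12 in E-V12 and between 13.26 and 14.43 in V12. Its 4 E-V12 arrays were above every other array of the series, and the change was 1.10 ± 0.27 (limma adjusted p = 0.0132). Without V12 replicate 1, 0 genes were called higher, and without V12 replicate 4, 4 were. Without CON replicate 1, Rps16, Rpl3 (1.03) and Rps27 (0.78) were called higher and Rpl27 (−0.70) lower.

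**Figure D3:**
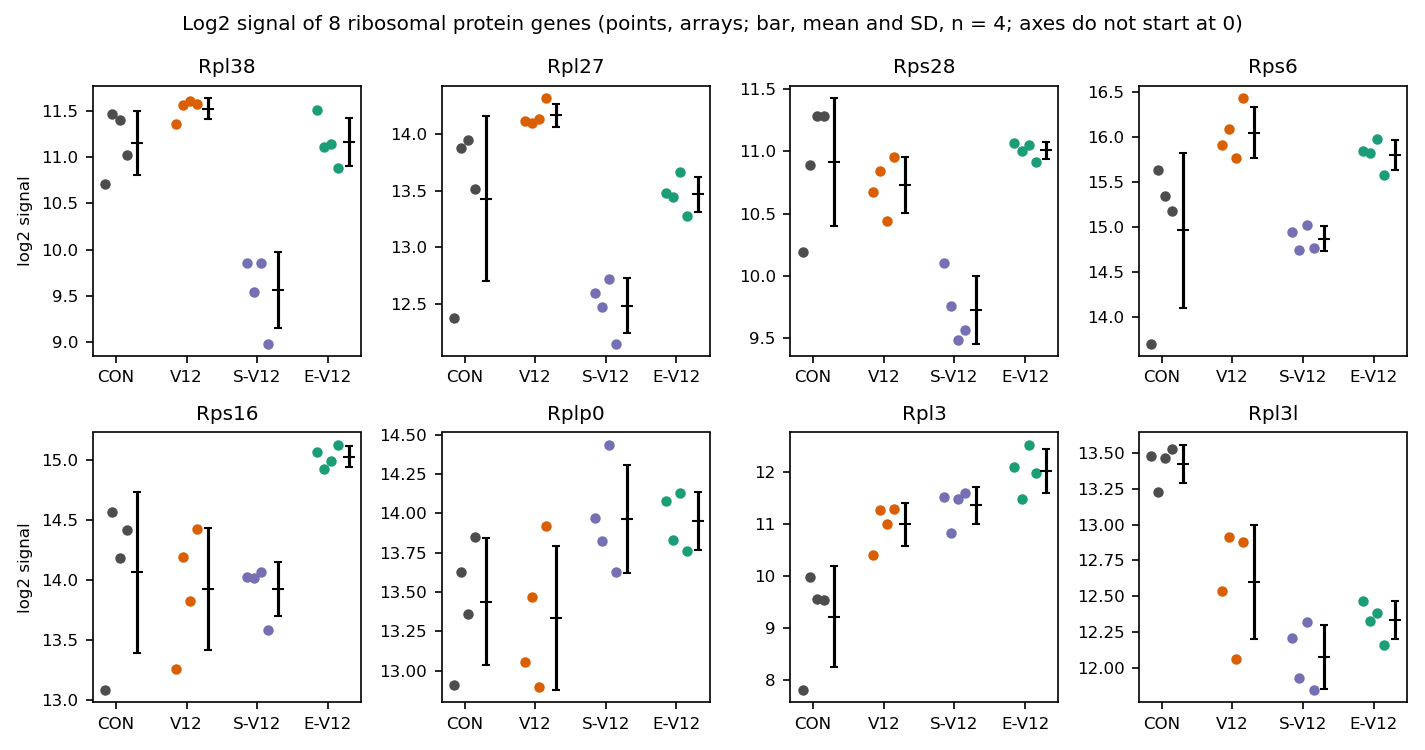
Log2 signal (vertical axis, not starting at 0) of 8 ribosomal protein genes by group; points are arrays and the bar beside them is the mean with SD (n = 4). Rpl38, Rpl27, Rps28 and Rps6 are low in S-V12, Rps16 is high in E-V12, Rplp0 overlaps between groups, and Rpl3 and Rpl3l move in opposite directions away from CON.

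Ventilation without the abdominal operation (V12/CON) gave fewer calls. Of the 76 genes, 9 were called higher and 1 lower, where 7.68% of all entries were called higher and 8.67% lower, so that the 11.8% called higher is not far from the share over all entries. The median change was 0.37 against 0.03 over all entries, with 63 genes above 0 and 25 with an unadjusted p under 0.05. Without CON replicate 1 the median was 0.12, and 3 genes were called higher (Rpl3, Rpl28 and Rps6) and 3 lower (Rpl3l, Rps14 and Rps21). The number called higher was 18 without CON replicate 2, 5 without V12 replicate 2 and 3 without V12 replicate 4.

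Rpl3, a core protein near the peptidyl transferase centre, rose most. It read 7.80, 9.97, 9.56 and 9.54 in CON and 10.41, 11.27, 11.01 and 11.29 in V12, without overlap, a change of 1.78 ± 0.35 (limma adjusted p = 7.56e-04). Without CON replicate 1, the lowest of these arrays, the change was 1.30 ± 0.26 (adjusted p = 0.00124). Its muscle-specific paralogue Rpl3l, expressed in heart and skeletal muscle, fell. Rpl3l read 13.48, 13.23, 13.46 and 13.53 in CON and 12.54, 12.91, 12.06 and 12.88 in V12, a change of −0.83 ± 0.20 (adjusted p = 0.00519), and CON replicate 1 was within the range of its group.

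Both paralogues moved the same way in the other groups against CON. In S-V12/CON, Rpl3 changed by 2.14 ± 0.35 and Rpl3l by −1.35 ± 0.20, and in E-V12/CON by 2.81 ± 0.35 and −1.09 ± 0.20. Rpl3 read 11.53, 10.83, 11.48 and 11.61 in S-V12 and 12.10, 11.49, 12.53 and 11.98 in E-V12, and Rpl3l 12.21, 11.93, 12.32 and 11.84 in S-V12 and 12.47, 12.32, 12.38 and 12.16 in E-V12. Every ventilated array was above all CON arrays for Rpl3 and below them for Rpl3l. All 3 comparisons use the same CON arrays, and without CON replicate 1 each of these 6 changes was still called. Neither gene was called in S-V12/V12 or E-V12/S-V12.

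The other genes called higher in V12/CON were Rpl28 (1.14 ± 0.22), Rps6 (1.09 ± 0.29), Rps20 (0.91), Rps7 (0.81), Rpl6 (0.78), Rpl14 (0.68), Rps4x (0.62) and Rpl36 (0.61). Rpl28 read 12.35, 13.60, 13.37 and 12.94 in CON, 14.13, 14.17, 14.20 and 14.31 in V12, and 13.21, 13.14, 13.26 and 13.01 in S-V12. It was thus high in V12 against both. Of the 9 genes, 6 were also called lower in S-V12/V12 (Rpl28, Rpl36, Rps4x, Rps6, Rps7 and Rps20), a comparison that shares the V12 arrays.

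In S-V12/CON, 22 genes were called lower and 2 higher, where 12.8% of all entries were called lower and 12.0% higher. The median change was −0.43, and −0.76 without CON replicate 1, when 44 genes were called lower and 1, Rpl3, higher. Without CON replicate 2, 14 were called lower. The largest falls were Rpl38 (−1.59 ± 0.22), Rps21 (−1.45 ± 0.40) and Rpl3l, and 20 of the 22 were also called lower in S-V12/V12. In E-V12/CON, 11 genes were called higher and 1 lower, where 10.9% of all entries were called higher and 12.6% lower, with a median of 0.40, and 0.16 without CON replicate 1. After Rpl3 came Rps27 (1.14 ± 0.40), Rpl6 (1.10 ± 0.25), Rpl17 (0.98), Rps16 (0.96), Rps6 (0.84) and Rpl23 (0.83). Without CON replicate 1, 2 were called higher (Rpl3 and Rpl6), and without CON replicate 2, E-V12 replicate 1 and E-V12 replicate 3 the numbers were 21, 7 and 3.

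Of the 76 genes, 23 were called in none of the 6 comparisons, among them Rplp0, Rpsa, Rpl5, Rpl10, Rpl11 and Rps2. Rpl22l1, the paralogue of Rpl22, was the most variable in CON, with 8.92 in replicate 1 and 12.69, 12.12 and 12.69 in the others. Rps12l4, below background on every array, was called lower in S-V12/V12, a call that rests on signals between 3.11 and 4.45.

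Genes with a tract exactly at the annotated start and the other genes with a promoter entry are set side by side here. Some of the others, such as Rps21 and Rps28, have a tract within 5 bases of the start. The others also include Rpl3l and the genes below background on every array, Rpl27l2, Rpl39l1, Rps12l4 and Rps4y2. In S-V12/V12, 12 of 23 with a tract exactly at the start and 17 of the 42 others were called lower, with medians of −0.80 and −0.63. In E-V12/S-V12, 10 of 23 and 12 of 42 were called higher, with medians of 0.91 and 0.69. The difference between these sets was not tested.

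Over the array, the median of the 76 genes relative to the CON mean was 0.09, 0.54, 0.26 and 0.67 in V12, −0.31, −0.46, −0.17 and −0.62 in S-V12, and 0.51, 0.40, 0.49 and 0.23 in E-V12. The S-V12 arrays were all below the V12 and E-V12 arrays. The mean of 4 poly-A spike entries, RNAs added in fixed amount before labelling, moved as well: it was 6.86 to 7.20 in S-V12, 5.83 to 6.26 in E-V12, 5.93 to 6.75 in V12 and 6.70 to 7.65 in CON. The S-V12 and E-V12 ranges did not overlap. On every E-V12 array the spike mean was below the highest background entry (6.41 to 6.75 in that group), so its level there is poorly measured. It was also below that entry on V12 replicate 3 and CON replicate 3. Hybridization spikes, added after labelling, lay between 10.7 and 11.3 over all arrays. The mean of the 9 red blood cell markers, of which Alas2, Ahsp, Slc4a1 and Epb42 were below background on every array, was 6.21 to 6.95 in S-V12, 7.33 to 8.09 in E-V12, 6.96 to 7.47 in V12 and 6.96 to 8.28 in CON. That of the 10 macrophage markers was 6.13 to 6.96 in CON, 6.76 to 7.86 in V12, 7.63 to 8.46 in S-V12 and 7.34 to 8.06 in E-V12. That of the 8 endothelial markers, of which Vwf and Tie1 were below background on every array, was 7.14 to 7.65 in CON, 6.55 to 7.84 in V12, 6.98 to 7.55 in S-V12 and 6.63 to 6.87 in E-V12, so S-V12 and E-V12 did not overlap. In E-V12/S-V12 all 8 were below 0, with a median of −0.53, and Pecam1 was called lower. The part of the labelling step and of other cells in the results was not tested.

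**Figure D4:**
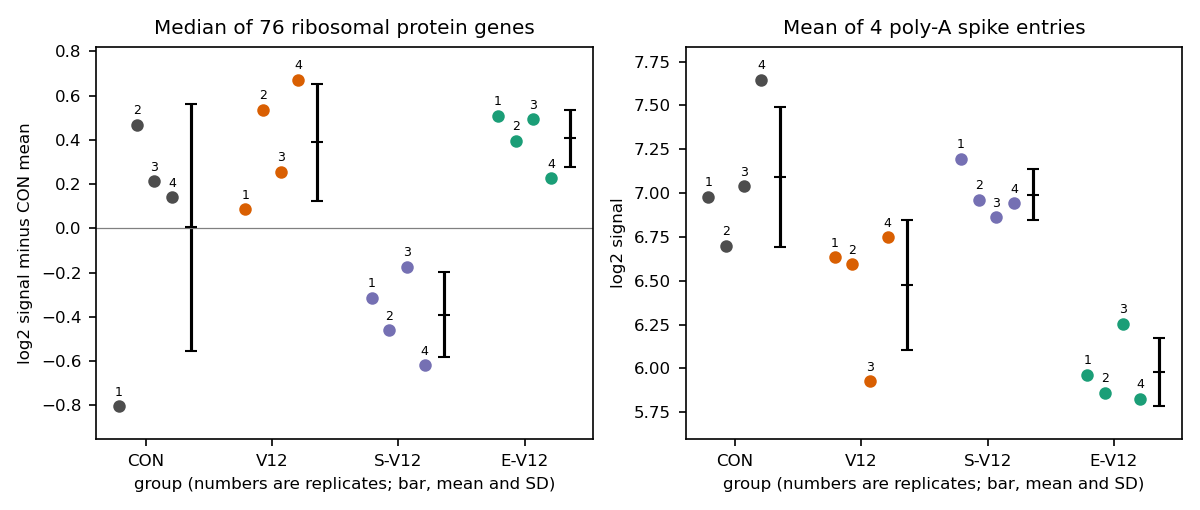
Left, the median over the 76 ribosomal protein genes of the log2 signal minus the CON mean, and right, the mean log2 signal of 4 poly-A spike entries, per array by group; numbers are replicates and bars the mean with SD (n = 4). On the left the S-V12 arrays (−0.62 to −0.17) are below the V12 and E-V12 arrays. On the right they (6.86 to 7.20) are above the E-V12 arrays (5.83 to 6.26). The E-V12 spike means are below the highest background entry of the same array.

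Other parts of the translation machinery are given by list. Over all entries, 7.68% were called higher and 8.67% lower in V12/CON, and 8.05% and 6.66% in S-V12/V12. In E-V12/S-V12 the shares were 1.19% and 1.51%. Fau, which encodes the ribosomal protein eS30 fused to a ubiquitin-like protein, changed by −0.91 ± 0.23 in S-V12/V12 (limma adjusted p = 0.00986) and 0.77 ± 0.23 in E-V12/S-V12 (adjusted p = 0.0797), and Rack1, a scaffold on the small subunit, was called in neither. Of 17 translation factors with TOP mRNAs, 6 were higher in V12/CON, in S-V12/V12 6 were lower and 1 was higher, and in E-V12/S-V12 4 were higher. Those 4 were Eif3m (1.17), Eef1b2 (1.10), Eif3e (0.80) and Tpt1 (0.78), and the last 3 had been lower in S-V12/V12, by −1.24, −1.18 and −1.23. Of 25 other initiation factors, S-V12/V12 had 7 (28%) higher and 2 (8%) lower, the latter near the share of all entries. E-V12/S-V12 had 0 initiation factors called (limma, 7 with an unadjusted p under 0.05).

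Ribosome biogenesis factors transcribe and process rRNA and assemble the subunits. Of 40, 21 (52.5%) were higher and 1 (2.5%) lower in V12/CON, against 7.68% and 8.67% of all entries. In S-V12/V12 24 (60%) were higher and 0 lower, against 8.05% and 6.66%. In E-V12/S-V12 the methyltransferase gene Fbl was higher and the pseudouridine synthase gene Dkc1 lower. Each is 2.5% of the list, near the 1.19% and 1.51% of all entries. The median changes of the 40 factors were 0.59, 0.71 and 0.08, and the difference from the ribosomal protein genes was not tested. In S-V12/V12 the helicase Ddx21 rose by 1.98 ± 0.21, the rRNA methyltransferase Nop2 by 1.89 ± 0.23, Wdr43, of the small subunit processome, by 1.89 ± 0.22 and Mybbp1a by 1.81 ± 0.23. Ddx21 averaged 11.35 ± 0.46 in V12, 13.33 ± 0.16 in S-V12 and 13.10 ± 0.31 in E-V12 (SD, n = 4), so it stayed high with stimulation.

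Of 23 genes of mTORC1 and the control of ribosome production, 5 (21.7%) were higher and 2 (8.70%) lower in V12/CON. Over all entries the shares were 7.68% and 8.67%, so the share called lower is that of all entries. Myc, which drives transcription of ribosomal genes, was not above background on any CON array and was 11.07 ± 0.81 in V12, at least 21.5-fold higher (limma adjusted p = 1.2e-10). The bound takes, on each CON array, the lowest signal above background. Myc was 13.05 ± 0.39 in S-V12 and 12.56 ± 0.42 in E-V12. Eif4ebp1, a repressor of cap-dependent translation that mTORC1 inactivates, rose by 3.74 ± 0.23. In E-V12/S-V12, Mtor changed by −0.81 ± 0.22 (adjusted p = 0.0489) and its inhibitor Tsc2 by −1.06 ± 0.25 (adjusted p = 0.0281).

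Among other large families, subunits of oxidative phosphorylation were also measured. Of 70, 49 (70%) were lower in S-V12/V12 and 24 (34.3%) higher in E-V12/S-V12, against 6.66% and 1.19% of all entries. The medians of the 70 were −1.04 and 0.68. In V12/CON 2 (2.86%) were higher and 8 (11.4%) lower, against 7.68% and 8.67% of all entries. Of 66 mitochondrial ribosomal proteins, S-V12/V12 had 26 (39.4%) lower and 1 higher, against 6.66% and 8.05% of all entries. In E-V12/S-V12 2 of the 66 (3.03%) were higher, against 1.19% of all entries. The medians of the 66 were −0.47 and 0.17. Whether the families differ from the ribosomal proteins was not tested.

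**Figure D5:**
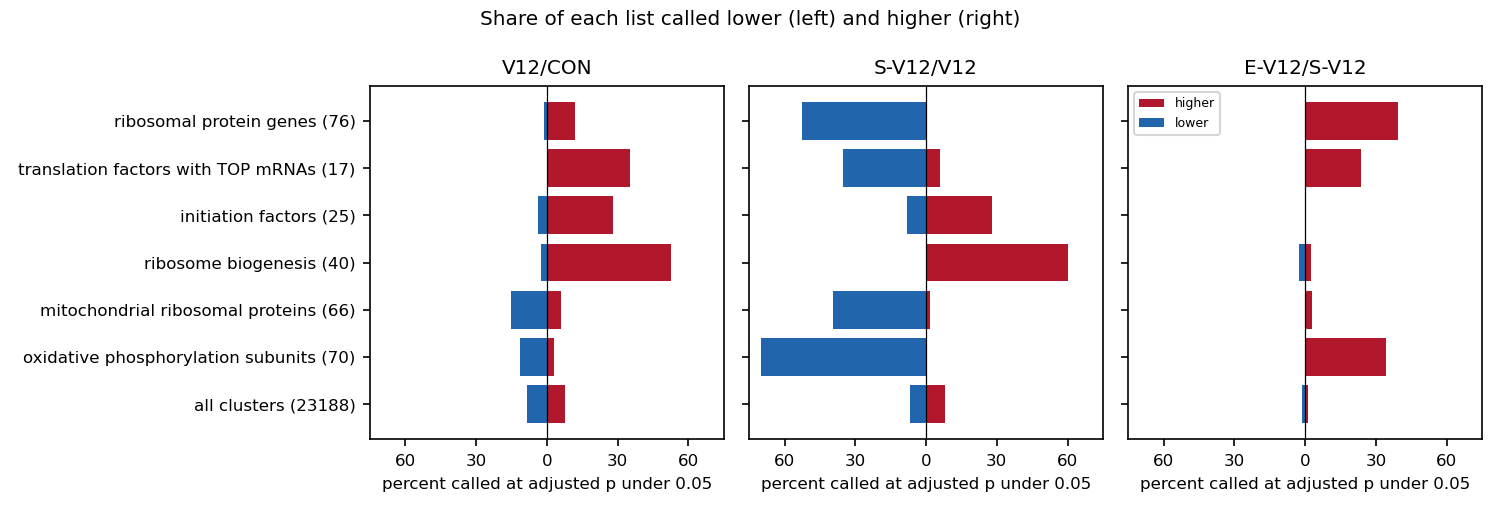
Percent of each gene list called lower (blue, left) and higher (red, right) at an adjusted p under 0.05 in 3 comparisons, with the number of genes measured in brackets and all entries in the bottom row. In S-V12/V12 the ribosomal protein and oxidative phosphorylation genes lie on the left (40 of 76 and 49 of 70) and ribosome biogenesis on the right (24 of 40).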

How the data were processed

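Diaphragm RNA of 16 rats, 4 per group by the labels, was hybridised to Clariom S arrays. Values deposited by the authors are log2 signals, 1 per transcript cluster (called entry in the report), for which the submitters' processing notes name RMA and the Transcriptome Analysis Console; the study's methods give the SST variant. This brings the arrays to a common scale, so a change is relative to the rest of the same array, and cell types and copies of a gene are not separated. No counts exist, so precision is limited by the number of arrays.

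Of 24834 rows, 1646 control rows were left out and 23188 tested, of which 15049 had a symbol. R 4.3.3 and limma 3.58.1 fitted 1 model of 4 group means, with Benjamini-Hochberg adjustment over all clusters of each of 6 comparisons. The script was tested on simulated data. The members and gene lists were chosen with earlier results of these data known. Genes were named by role, by the 8 largest called changes in each direction, and by the 4 smallest adjusted p per list and comparison; genes called in no comparison could also be named. Others, such as Acta1, Ckm, Rpl36 and Rps14, were named after their values were seen. The symbols come from the platform's annotation, and "-l" in the rule was read as a hyphen and l. Alternatives were the methods' t-test (adjusted p, no fold limit) and the methods' thresholds applied to the limma values. Further alternatives were 2 groups alone, array weights, median centring, quantile normalization, a filter on dim clusters, a replicate block and leaving out each array. Leaving out the paralogues was added after seeing the data. A tract was searched on the gene's strand only.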

Additional observations from a re-analysis of the deposited data

Results flagged for a closer look

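Of 164 groups of 4 arrays tested for a single array far from the other 3 (40 named ribosomal protein genes and the median over all of them), 19 had one by Dixon's test. Chance flags about 1 in 20 groups, and arrays of 1 rat recur over genes that move together. CON replicate 1 was far below the other controls for Rpl11 (12.6), Rpl14 (11.4), Rpl22l1 (8.92), Rpl9 (10.7), Rps20 (11.3) and Rpsa (12.3), all log2 signals of that array. In V12, replicate 1 was low for Rpl37l1 (8.96), Rpl38 (11.4) and Rplp1 (17.6), and replicate 4 was high for Rpl27 (14.3). In S-V12, replicate 2 was low for Rpl3 (10.8), replicate 3 was high for Rpl30 (12.5) and Rpl35 (12.3), and replicate 4 was low for Rps16 (13.6) and Rps19 (11.9). In E-V12, replicate 4 was low for Rpl19 (14.7) and Rps19 (12.3), replicate 1 was high for Rpsa (13.7) and replicate 2 was high for Rpl22l1 (13.0).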

How the results depend on the processing

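No called change of a ribosomal protein gene reversed under the alternatives run; the median change in E-V12/V12, near 0, crossed 0 when single arrays were left out. Counts of ribosomal protein genes moved by over 1.5 times as follows, and the cause was not tested. With the methods' t-test, 0 were higher and 0 lower in V12/CON, 1 was lower in E-V12/V12, 1 was higher and 7 lower in S-V12/CON, and 2 were higher in E-V12/CON. With the methods' thresholds (fold of 2 and unadjusted p), 3 were higher and 0 lower in V12/CON, 26 lower in S-V12/V12, 2 higher in E-V12/V12, 1 higher and 7 lower in S-V12/CON, and 4 higher in E-V12/CON. With the 2 groups alone, 3 were higher in V12/CON, 49 in E-V12/S-V12, 2 in E-V12/V12 and 4 in E-V12/CON, and 1 was lower in E-V12/V12. With array weights, 47 were higher in E-V12/S-V12, and 2 were higher and 1 lower in E-V12/V12. With paralogues left out, 0 were lower in V12/CON and in E-V12/CON, since the gene called was Rpl3l.

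When each array was left out in turn, the number higher ran from 3 to 18 and lower from 1 to 3 in V12/CON, higher from 0 to 1 and lower from 29 to 51 in S-V12/V12, and higher from 6 to 47 in E-V12/S-V12. It ran from 0 to 4 higher and 0 to 1 lower in E-V12/V12, from 1 to 3 higher and 14 to 44 lower in S-V12/CON, and from 2 to 21 higher in E-V12/CON. The median change ran from 0.12 to 0.55 in V12/CON, −0.94 to −0.71 in S-V12/V12, 0.75 to 0.91 in E-V12/S-V12, −0.07 to 0.12 in E-V12/V12, −0.76 to −0.26 in S-V12/CON and 0.16 to 0.54 in E-V12/CON.

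Rats of different groups share only a replicate number: the correlation of same-numbered deviations over 24 pairs ran from −0.09 to 0.11. With the replicate block, 39 genes were lower in S-V12/V12 and 28 higher in E-V12/S-V12, and 9 were higher in V12/CON.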
